A study of Rattus norvegicus with 18 samples.

Results

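Bmp2, Bmp4, Bmp7, Bmpr1a, Bmpr2, Smad1, Smad5, Smad6 and Smad7 are 9 genes of the bone morphogenetic protein (BMP) signalling pathway, and they were taken by name from a table of 32545 gene lines measured in rat epiblast and primordial germ cells (PGCs). All 9 were in the table and all 9 passed the filter on low values (at least 1 RPKM in at least 2 libraries), which 14865 lines passed. The table gives RPKM, reads scaled to gene length and library size, for 18 RNA-seq libraries made with a low-input full-length cDNA kit. Every library came from Crlj:WI rats, a Wistar strain, that carried the Prdm14-Venus reporter, so all groups share that genotype and none lacks it.

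The 6 epiblast libraries are 2 male and 1 female at each of embryonic days E7.25 and E7.75. The 12 PGC libraries are 2 for each of the days E9.5, E10.5 and E11.5 and 2 for E12.5, with no sex in the labels, and 2 male and 2 female at E15.5. How cells were picked, and how many animals went into a library, is not given in the sources used here, so the spread between replicates may be technical and p-values measure only that spread. Epiblast values below are given in the order male replicate 1, male replicate 2, female, and PGC values in the order replicate 1, replicate 2.

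BMPs are secreted ligands that bring together type I receptors such as Bmpr1a and type II receptors such as Bmpr2. The type I receptor then phosphorylates the receptor-regulated Smads, among them Smad1 and Smad5, which join Smad4 and act on genes in the nucleus. Smad6 and Smad7 are inhibitory Smads, which the pathway itself induces in many cells and which dampen it. In mouse embryos, Bmp4 from the extraembryonic ectoderm is known as a signal that turns epiblast cells into PGCs, and Bmp2 from the endoderm adds to it.

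Labels were checked on marker genes. The summed RPKM of 8 PGC markers was 5.56 to 20.0 in the epiblast libraries and 423 to 850 in the PGC libraries, and Tfap2c, a transcription factor that defines PGCs, was at most 0.64 RPKM in the former and 196 to 396 in the latter. Of those 8 markers 7 were tested, and all 7 were called higher in E9.5 PGCs than in the E7.75 epiblast; the untested one, Itgb3, was at most 1.08 RPKM. Dppa3 was at a mean of 83.7 RPKM at E12.5 and 61.6 in E15.5 females, but at 0.268 to 0.491 at E10.5, at E11.5 and in E15.5 males, and at 0.106 in 1 of the E9.5 libraries. Among epiblast genes, the DNA methyltransferase Dnmt3b was at 1208 ± 131 RPKM at E7.25 and 1013 ± 94.4 at E7.75 and at 3.04 to 26.2 in the PGC libraries, and Fgf5 was listed at 0 in all 18 libraries. Of 4 tested epiblast markers, 3 were lower and 1 was not called at E9.5 against E7.75. From E9.5 to E10.5, 2 of the 4 rose, and over all PGC groups against epiblast 1 was higher and 3 were lower. Utf1 was at a mean of 1575 RPKM at E7.25, 1215 at E7.75, 278 at E9.5 and 1921 at E10.5. Sox2 was at 24.2 RPKM at E7.25, 40.5 at E7.75, 45.5 at E9.5 and 152.9 at E10.5. The low RPKM steps put the 4 E10.5 and E11.5 libraries at 20.7% to 22.9% of the depth of the E7.75 female library, against 82.6% to 120.9% for the other 14. Of the tested genes, 14.4% to 21.6% were listed at 0 in those 4 libraries and 8.29% to 15.4% in the other 14, so low values are least precise at E10.5 and E11.5.

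Summed markers of extraembryonic mesoderm, mesenchyme and endothelium were highest in the E9.5 PGC libraries. The 7 markers of extraembryonic mesoderm and allantois summed to 377 and 379 RPKM there, against 0.661 to 2.49 in the E7.75 epiblast and 31.7 to 40.1 at E10.5, and the defining gene Hand1 stood at 261 and 245 RPKM. The 6 mesenchyme markers summed to 174 and 171 RPKM at E9.5 and to at most 22.4 in every other group. The 6 endothelial markers summed to 95.4 and 27.4 RPKM at E9.5 and to at most 6.19 elsewhere. In E9.5 replicate 2, Kdr alone made 25.3 of the 27.4 RPKM, and 3 of the 6 markers were listed at 0. Of 5 tested from E7.75 to E9.5, 2 rose and none fell, against 16.3% and 11.3% of all genes tested. The blood markers summed to at most 2.91 in any library, with Hbb and Gata1 listed at 0 throughout. The gut epithelium markers summed highest in epiblast, at 878 to 1058 RPKM, against 695 and 564 at E9.5. Their members differed: of 5 tested from E7.75 to E9.5, 2 rose and 2 fell. Epcam (378.7 to 180.5 RPKM) and Cldn6 (538.0 to 158.8) were lower by mean, while Krt8 (17.0 to 237.5) and Krt19 (0.459 to 50.65) were higher. At E10.5 the means of Krt8 and Krt19 were 11.4 and 3.41 RPKM. The endoderm markers summed to 33.6 and 59.4 RPKM at E9.5 against 0.138 to 15.2 in the E7.75 epiblast, of which Sox17, also a PGC gene in other mammals, made 31.7 and 43.2. Sox17 was the only one of the 7 endoderm markers called, and Afp was listed at 0 at both stages. Of 3 tested extraembryonic ectoderm markers, Cdx2 (0.281 to 44.4 RPKM) and Esrrb (0.0556 to 4.99) rose and Eomes (20.8 to 0.900) fell, while Elf5 was listed at 0 at both stages. The part of these markers in the E9.5 values below was not tested. In bulk libraries, fewer cells of a type and less RNA per cell cannot be told apart.

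Promoters were looked up for the 9 genes in RefSeq (GRCr8, a later build than the rn6 build named for the deposited values), and 6 had an entry. Shown are the 250 bases before the transcription start of Bmp4, the ligand with the highest RPKM, at chr15:22101934-22102183 on the minus strand, and of Smad7, the promoter with the most matches, at chr18:71263258-71263507 on the plus strand. Both strands were searched for a GC-rich Smad site (GGCGCC), a palindromic Smad box (GTCTAGAC) and the CAGA box of other Smads (CAGACA, or TGTCTG on the opposite strand), and capitals mark the matches.
Bmp4: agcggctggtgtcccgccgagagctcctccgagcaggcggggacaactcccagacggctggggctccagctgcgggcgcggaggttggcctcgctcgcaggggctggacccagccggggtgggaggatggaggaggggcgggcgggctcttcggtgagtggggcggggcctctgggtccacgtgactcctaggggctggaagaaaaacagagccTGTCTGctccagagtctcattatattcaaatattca
Smad7: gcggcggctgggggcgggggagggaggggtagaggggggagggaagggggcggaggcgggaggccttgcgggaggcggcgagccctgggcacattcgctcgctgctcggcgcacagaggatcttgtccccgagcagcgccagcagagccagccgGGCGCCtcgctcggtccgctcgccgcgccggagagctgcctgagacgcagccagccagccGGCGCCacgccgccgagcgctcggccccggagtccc
The Bmp4 window held 1 CAGA box starting 36 bases before the start, and the Smad7 window held 2 GC-rich sites starting 96 and 36 bases before it. Among 250-base windows of 33469 rat promoters, 8.69% held GGCGCC, 0.173% held GTCTAGAC and 17.2% held the CAGA box. The Smad7 window was 78% G and C and the Bmp4 window 66.4%, where the median promoter had 51.2%, and G and C content bears on how often GGCGCC occurs. The windows of Bmpr1a, Bmpr2, Smad1 and Smad5 held none of these letters.

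From the E7.75 epiblast to E9.5 PGCs, 7 of the 9 genes rose and none fell: all 3 ligands, both receptors, Smad5 and Smad6. Of all genes tested, 27.6% were called in this comparison, 16.3% higher and 11.3% lower. Those 2422 higher and 1686 lower calls became 2028 and 2173 after quantile normalization and 1863 and 2338 after upper-quartile scaling. The median difference of the 9 genes was 1.70 on the log2(RPKM + 1) scale, and that of all genes tested was 0.04. The libraries of the 2 groups did not overlap for the 7 genes that rose. With so few libraries that says little: between E11.5 and E12.5, 7 of the 9 genes did not overlap and 0 were called. The share of all genes tested without overlap was not counted. Differences here and below are on the log2(RPKM + 1) scale, with standard errors and Benjamini-Hochberg adjusted p-values from limma over all genes tested. Folds are ratios of mean RPKM.

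**Figure D1:**
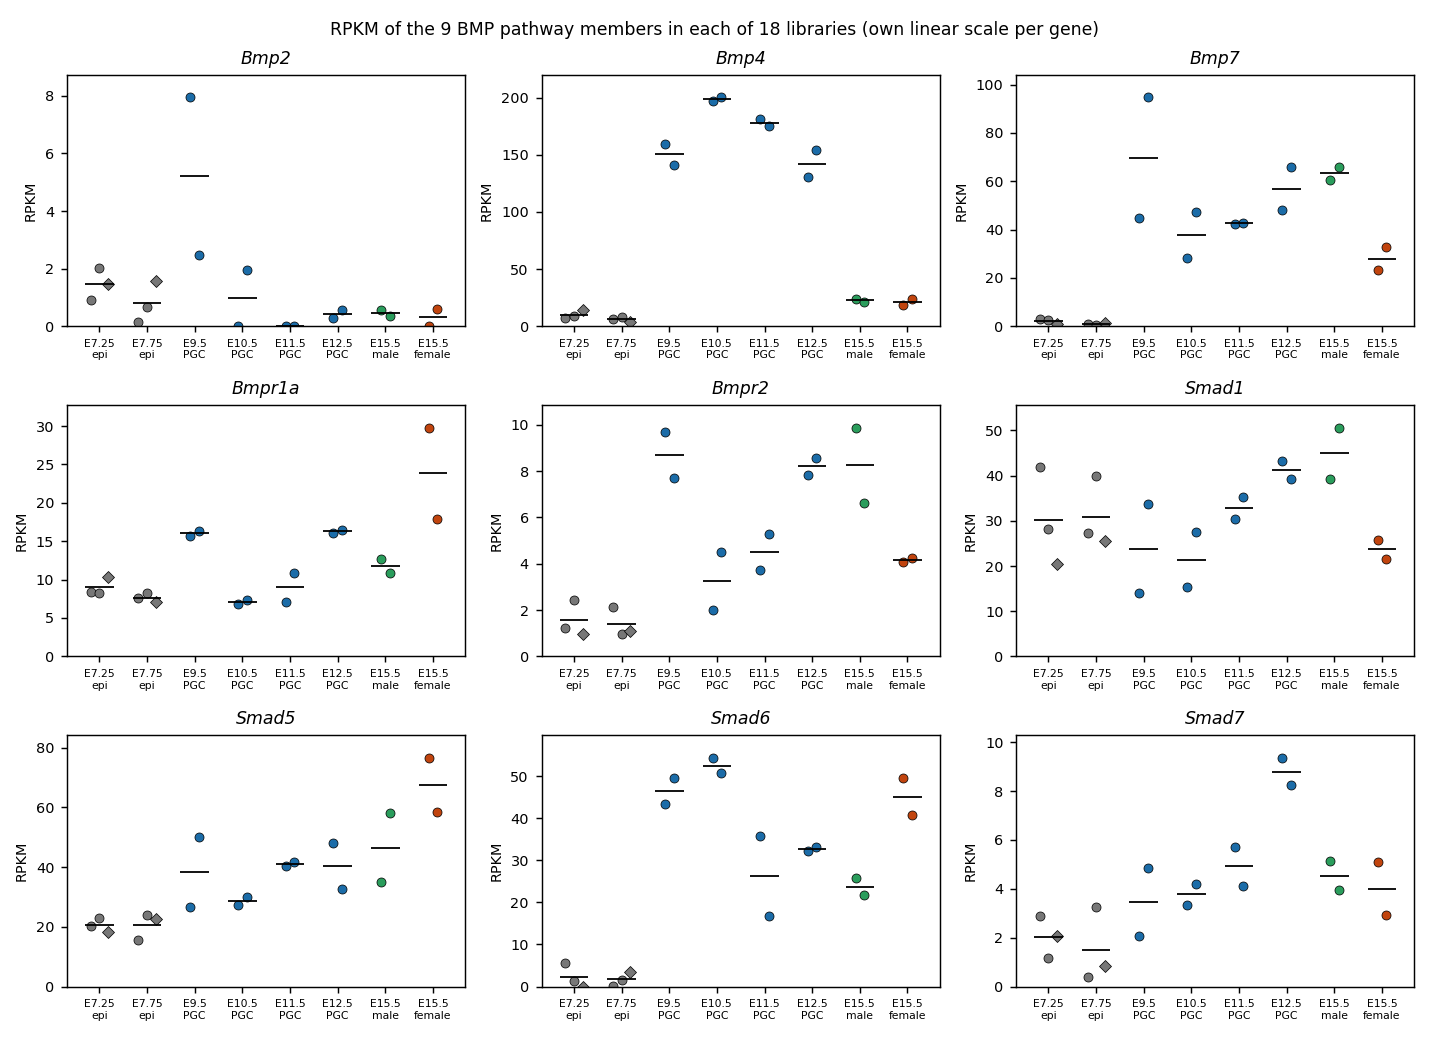
RPKM of the 9 genes in each of the 18 libraries, with a panel per gene on its own linear axis starting at 0 and groups in order of embryonic day; points are libraries, diamonds mark epiblast females and bars are group means. Bmp4, Bmp7 and Smad6 are near the bottom of their panels in all 6 epiblast libraries, and Bmp4 returns to between 18.3 and 24.2 RPKM at E15.5.

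Bmp4 was at 6.78, 9.03 and 14.5 RPKM in the E7.25 epiblast and at 6.11, 8.08 and 3.39 in the E7.75 epiblast. It was at 159.6 and 141.5 RPKM in E9.5 PGCs, 196.9 and 200.3 at E10.5, 181.0 and 175.1 at E11.5, and 130.7 and 153.8 at E12.5. E15.5 males had 24.2 and 21.3 RPKM and females 18.3 and 23.9. The gene was thus low in epiblast, high in all 8 PGC libraries from E9.5 to E12.5, and intermediate at E15.5, with no overlap among these 3 blocks. Ordered by mean, E10.5 came first, then E11.5, E9.5, E12.5, E15.5 males, E15.5 females, E7.25 and E7.75, and the neighbours that overlapped were E9.5 with E12.5, the E15.5 sexes and the epiblast days.

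The rise of Bmp4 from E7.75 to E9.5 was 4.53 ± 0.29 (SE; limma adjusted p = 1.058e-07), from 5.86 ± 2.36 RPKM (SD, n = 3) to 150.5 ± 12.7 (n = 2), or 25.7-fold. From E9.5 to E12.5 its difference was -0.08, with a 95% interval of -0.76 to 0.59. Between E12.5 and E15.5 it fell by 2.59 ± 0.32 in males (adjusted p = 0.0001747), a mean 6.26-fold lower, and by 2.70 ± 0.32 in females (adjusted p = 6.01e-05), 6.74-fold lower. Those 2 comparisons share the E12.5 libraries. Bmp4 was the only one of the 9 genes called in either of them, where 8.73% of all genes tested were called for males (3.58% higher, 5.15% lower) and 18.4% for females (8.6% higher, 9.84% lower). The sexes did not differ at E15.5 beyond the spread, at -0.11 for female minus male with an interval of -0.79 to 0.57. These rises and falls of Bmp4 kept their calls under every alternative analysis run.

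Bmp7 was at 2.80, 2.52 and 1.03 RPKM in the E7.25 epiblast and 0.706, 0.487 and 1.22 in the E7.75 epiblast. It was at 44.9 and 94.7 RPKM in E9.5 PGCs, 28.2 and 47.2 at E10.5, 42.2 and 42.8 at E11.5, and 48.0 and 65.8 at E12.5. E15.5 males had 60.6 and 65.9 RPKM and females 23.2 and 32.8. Unlike Bmp4, the male E15.5 libraries lay within the range of the E9.5 libraries, and both female libraries lay below both male ones. Ordered by mean, E9.5 led E15.5 males, E12.5, E11.5, E10.5, E15.5 females, E7.25 and E7.75, and neighbours overlapped except at the steps from E12.5 to E11.5 and from E15.5 females to E7.25.

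The rise of Bmp7 at E9.5 was 5.22 ± 0.35 (limma adjusted p = 1.644e-07), from 0.805 ± 0.378 RPKM to 69.8 ± 35.2, or 86.6-fold, and it kept its call under every alternative. The difference from E12.5 (56.9 ± 12.6 RPKM) to E15.5 females (28.0 ± 6.78), with an adjusted p of 0.08853, missed the threshold of 0.05. So did the female minus male difference of -1.17 ± 0.38 (adjusted p = 0.07371; interval -1.99 to -0.34), with 63.3 ± 3.73 RPKM in males. That second difference was called when either E9.5 library was left out, replicate 1 (adjusted p = 0.0421) or replicate 2 (0.04249), neither of which is in the groups compared.

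Bmp2 was low nearly everywhere. It was at 0.902, 2.02 and 1.45 RPKM in the E7.25 epiblast, 0.160, 0.680 and 1.58 in the E7.75 epiblast, and 7.95 and 2.46 in E9.5 PGCs. From E10.5 on it was at 0 and 1.94 RPKM, then listed at 0 in both E11.5 libraries, then at 0.273 and 0.560 at E12.5, 0.571 and 0.359 in E15.5 males, and 0 and 0.604 in E15.5 females. No PGC library after E9.5 passed 1.94 RPKM, and the 4 libraries with the lowest depth include 3 of the 4 zeros. Below the leading E9.5 group, every neighbouring pair in the order of means overlapped.

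The rise of Bmp2 at E9.5 was 1.70 ± 0.49 (limma adjusted p = 0.01941), from 0.808 ± 0.720 to 5.20 ± 3.88 RPKM. It rested on single libraries: without E9.5 replicate 1 the adjusted p was 0.2265, and without E7.75 male replicate 1 it was 0.07193. Bmp2 then fell by 1.70 ± 0.54 from E9.5 to E10.5 (adjusted p = 0.02918) and by 1.98 ± 0.54 from E9.5 to E12.5 (adjusted p = 0.01642), the only call among the 9 in the second comparison, where 23.2% of all genes tested were called (11.3% higher, 11.9% lower). Both falls also lost their calls without E9.5 replicate 1, at adjusted p of 0.2409 and 0.1611. The fall at E10.5 was lost as well without E10.5 replicate 1, and the fall at E12.5 without E12.5 replicate 1 or 2. After quantile normalization the fall at E10.5 was lost, and in a fit of the compared groups alone both were. The fall at E12.5 was also lost with a pseudocount of 0.1, and with the filter at 5 RPKM Bmp2 was not tested.

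As RPKM is per length, the ligands can be set side by side within a library. Bmp4 RPKM was 2.42 to 16.6 times Bmp7 RPKM in epiblast libraries and 1.49 to 6.98 times it in PGC libraries from E9.5 to E12.5. At E15.5 the ratio was below 1 in all 4 libraries, at 0.399 and 0.323 in males and 0.789 and 0.729 in females. The ligand with the higher level thus changed from Bmp4 to Bmp7. The sum of the 3 ligands was 6.19 to 17.0 RPKM in epiblast, 179 to 249 in PGCs from E9.5 to E12.5, 85.4 to 87.5 in E15.5 males and 41.5 to 57.3 in E15.5 females.

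The receptors moved less than Bmp4 and Bmp7. Bmpr1a, the type I receptor, was at 8.37, 8.26 and 10.3 RPKM in the E7.25 epiblast and 7.55, 8.19 and 7.02 in the E7.75 epiblast. In PGCs it was at 15.7 and 16.4 RPKM at E9.5, 6.76 and 7.37 at E10.5, 7.09 and 10.9 at E11.5, and 16.1 and 16.5 at E12.5. At E15.5 it was at 12.7 and 10.8 RPKM in males and 29.8 and 17.9 in females, and the latter were the highest of any group. By mean the order was E15.5 females, E12.5, E9.5, E15.5 males, E11.5, E7.25, E7.75 and E10.5, with overlap between E12.5 and E9.5, E15.5 males and E11.5, E11.5 and E7.25, and E7.75 and E10.5. The E9.5 and E12.5 libraries lay together and above both epiblast days, and the E10.5 libraries lay within or just below the epiblast range.

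Bmpr1a rose by 0.99 ± 0.24 from E7.75 to E9.5 (limma adjusted p = 0.007178; 2.12-fold), under every alternative. It fell by 1.08 ± 0.26 from E9.5 to E10.5 (adjusted p = 0.00709), a mean 2.27-fold lower. Bmp2, Bmpr1a and Bmpr2 were the 3 of the 9 genes called lower in that comparison, none was called higher, and 29.9% of all genes tested were called (11.5% higher, 18.4% lower). The calls over all genes split into 1711 higher and 2732 lower, against 2068 and 1931 after quantile normalization and 2209 and 2118 after upper-quartile scaling. The median difference of all genes tested was -0.16 there, quantile normalization moved it by 0.186 and upper-quartile scaling by 0.147, and after quantile normalization the fall of Bmpr1a missed the threshold (adjusted p = 0.06415). That fall also lost its call in a fit of the compared groups alone. E9.5 to E12.5 gave 0.02 for Bmpr1a, with an interval of -0.55 to 0.59.

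At E15.5, Bmpr1a was the only one of the 9 genes called between the sexes, higher in females by 0.92 ± 0.26 (limma adjusted p = 0.04146; interval 0.35 to 1.49). The means were 23.8 ± 8.41 RPKM in females and 11.8 ± 1.37 in males (SD, n = 2 each), or 2.03-fold, with no overlap. Of all genes tested, 9.68% were called in this comparison, 4.33% higher in females and 5.35% lower. The call was lost in 13 of 26 alternatives, among them leaving out female replicate 1 (adjusted p = 0.3052), male replicate 1 (0.1124) or male replicate 2 (0.2164), fitting the 4 E15.5 libraries alone (0.2524) and blocking on the replicate number (0.05561). It was lost too, at 0.05177 to 0.0595, without either E7.25 male, any E7.75 library or either E12.5 library.

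Bmpr2, the type II receptor, was at 1.24, 2.45 and 0.962 RPKM in the E7.25 epiblast and 2.12, 0.979 and 1.09 in the E7.75 epiblast. It was at 9.70 and 7.71 RPKM in E9.5 PGCs, 2.01 and 4.49 at E10.5, 3.74 and 5.29 at E11.5, and 7.84 and 8.57 at E12.5. E15.5 males had 9.88 and 6.61 RPKM and females 4.07 and 4.26. Ordered by mean, E9.5, E15.5 males and E12.5 overlapped at the top, and after a gap E11.5, E15.5 females, E10.5, E7.25 and E7.75 each overlapped the next. For both receptors the E10.5 libraries thus lay below those of E9.5 and E12.5 in RPKM, and E12.5 was not tested against E10.5. At E15.5 the female libraries were the higher ones for Bmpr1a and the lower ones for Bmpr2.

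Bmpr2 rose by 2.04 ± 0.36 from E7.75 to E9.5 (limma adjusted p = 0.0007588; 6.23-fold), a call kept under every alternative. It fell by 1.25 ± 0.39 to E10.5 (adjusted p = 0.02742; 2.68-fold lower), a call lost without E9.5 replicate 1 (0.1175), E9.5 replicate 2 (0.05187) or E10.5 replicate 1 (0.208). The call of this fall was also lost after quantile normalization and in a fit of the compared groups alone. The female minus male difference of Bmpr2 at E15.5, -0.82 ± 0.39 (limma adjusted p = 0.2351), did not pass. The ratio of Bmpr1a to Bmpr2 RPKM was 3.37 to 10.7 in epiblast libraries and 1.62 to 3.36 in PGCs from E9.5 to E12.5. At E15.5 it was 1.29 to 1.64 in males and 4.20 to 7.33 in females, so the female ratios lay in the epiblast range.

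**Figure D2:**
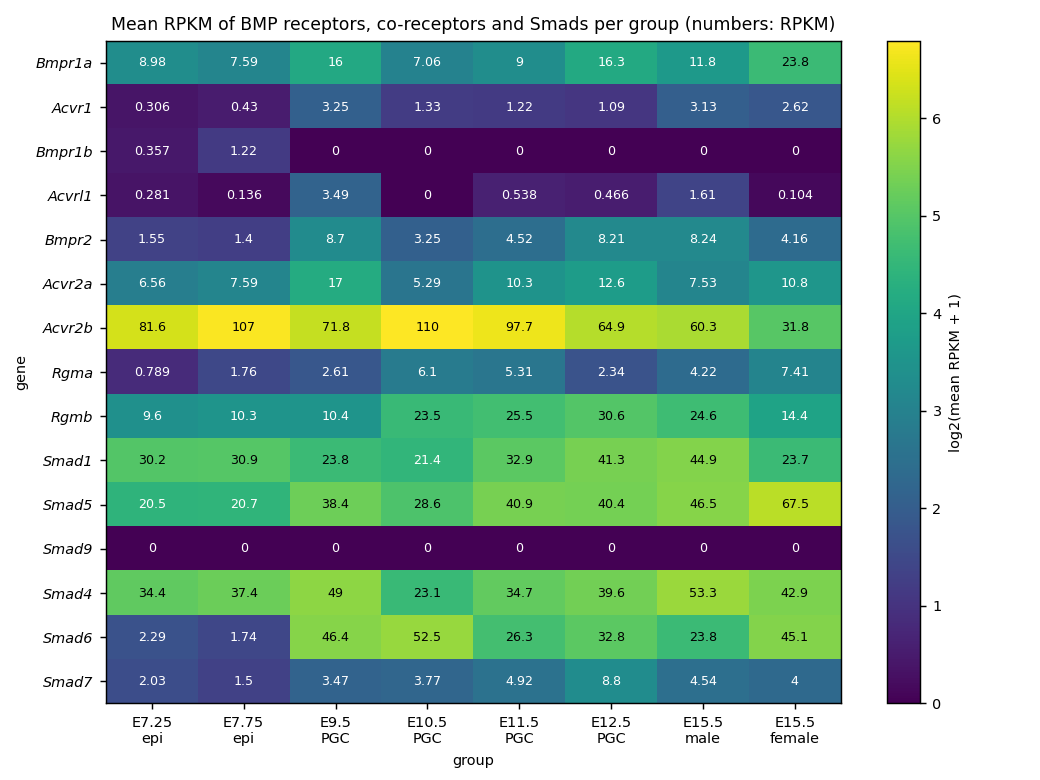
Mean RPKM of each group (columns, by embryonic day) for the member receptors and Smads and other genes of those classes (rows), with the mean printed in each cell and the colour on a log2(RPKM + 1) scale. Smad1, Smad4 and Smad5 are above 20 RPKM in every group, while Smad6 goes from under 3 in epiblast to over 23 in every PGC group.

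Smad1, a receptor-regulated Smad, spanned 13.9 to 50.6 RPKM over the 18 libraries. It was at 41.9, 28.2 and 20.5 RPKM in the E7.25 epiblast and 27.3, 40.0 and 25.5 in the E7.75 epiblast. In PGCs it was at 13.9 and 33.7 RPKM at E9.5, 15.3 and 27.5 at E10.5, 30.3 and 35.4 at E11.5, and 43.3 and 39.2 at E12.5. At E15.5 it was at 39.2 and 50.6 RPKM in males and 25.7 and 21.7 in females. Ordered by mean from E15.5 males through E12.5, E11.5, E7.75, E7.25, E9.5, E15.5 females and E10.5, every neighbouring pair overlapped except E12.5 and E11.5, and Smad1 was called in none of the 10 comparisons. Its PGC minus epiblast difference was -0.01 ± 0.20 (limma adjusted p = 0.9593), with an interval of -0.43 to 0.41.

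Smad5, its close relative, was at 20.3, 23.0 and 18.2 RPKM in the E7.25 epiblast and 15.6, 23.9 and 22.7 in the E7.75 epiblast. In PGCs it was at 26.8 and 50.1 RPKM at E9.5, 27.2 and 30.1 at E10.5, 40.2 and 41.7 at E11.5, and 48.2 and 32.5 at E12.5. E15.5 males had 35.0 and 58.0 RPKM and females 76.6 and 58.4. Every PGC library lay above every epiblast library. E15.5 females had the highest mean, above E15.5 males without overlap, and from there E11.5, E12.5, E9.5 and E10.5 each overlapped the group before.

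The rise of Smad5 from E7.75 to E9.5, 0.82 ± 0.28 (limma adjusted p = 0.04545; 1.86-fold), was close to the threshold and was lost in 16 of 26 alternatives, with an adjusted p of 0.4321 without E9.5 replicate 2, 0.1504 without E7.75 male replicate 1, 0.06078 without the E7.75 female and 0.05333 with the replicate block. It was lost too, at 0.05067 to 0.0573, without any of the 3 E7.25 epiblast libraries or the 4 E10.5 and E11.5 libraries, which are not in the groups compared. Over all PGC groups it was higher than in epiblast by 0.99 ± 0.16 (adjusted p = 7.993e-05), under every alternative. The ratio of Smad5 to Smad1 RPKM was 0.484 to 0.890 in epiblast and 0.829 to 1.92 in PGCs from E9.5 to E12.5. At E15.5 this ratio was 0.893 and 1.15 in males and 2.99 and 2.70 in females. Neither gene was called between the sexes: Smad5 differed by 0.56 ± 0.31 (adjusted p = 0.3174) and Smad1 by -0.89 ± 0.39 (adjusted p = 0.1892). Smad9, another receptor-regulated Smad of this pathway, was listed at 0 in all 18 libraries, and it is named here after its values were seen.

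Smad6, an inhibitory Smad, was at 5.58, 1.28 and 0 RPKM in the E7.25 epiblast and 0.231, 1.52 and 3.48 in the E7.75 epiblast. It was at 43.3 and 49.5 RPKM in E9.5 PGCs, 54.4 and 50.7 at E10.5, 35.8 and 16.8 at E11.5, and 32.3 and 33.2 at E12.5. At E15.5 it was at 25.8 and 21.7 RPKM in males and 49.5 and 40.7 in females. No PGC library was under 16.8 RPKM and no epiblast library over 5.58. By mean the order was E10.5, E9.5, E15.5 females, E12.5, E11.5, E15.5 males, E7.25 and E7.75, with gaps after E10.5, E15.5 females and E15.5 males and overlap between the other neighbours.

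Smad6 rose by 4.30 ± 0.62 from E7.75 to E9.5 (limma adjusted p = 0.0001714), from 1.74 ± 1.63 to 46.4 ± 4.38 RPKM, or 26.6-fold, and this call was kept under every alternative. Later steps gave no call. The female minus male difference at E15.5 was 0.90 ± 0.68 (adjusted p = 0.4961; interval -0.57 to 2.36), with means of 45.1 ± 6.23 and 23.8 ± 2.92 RPKM and no overlap.

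Smad7, the other inhibitory Smad, was at 2.87, 1.17 and 2.05 RPKM in the E7.25 epiblast and 0.410, 3.26 and 0.836 in the E7.75 epiblast. In PGCs it was at 2.08 and 4.86 RPKM at E9.5, 3.35 and 4.19 at E10.5, 5.73 and 4.11 at E11.5, and 9.36 and 8.23 at E12.5. Males at E15.5 had 5.13 and 3.94 RPKM and females 5.08 and 2.92. The E12.5 libraries were the highest, and below them E11.5, E15.5 males, E15.5 females, E10.5, E9.5, E7.25 and E7.75 each overlapped the next by mean.

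Smad7 was not called at E9.5 (0.93 ± 0.45; limma adjusted p = 0.1493), although it was when E7.75 male replicate 2 was left out (0.02431). Over all PGC groups it was higher than in epiblast by 1.13 ± 0.25 (adjusted p = 0.001366), under every alternative. Within a library the ratio of Smad6 to Smad7 RPKM was 0 to 4.16 in epiblast and 3.45 to 20.8 in PGCs, so Smad6 was the higher of the inhibitory Smads in all 12 PGC libraries.

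**Figure D3:**
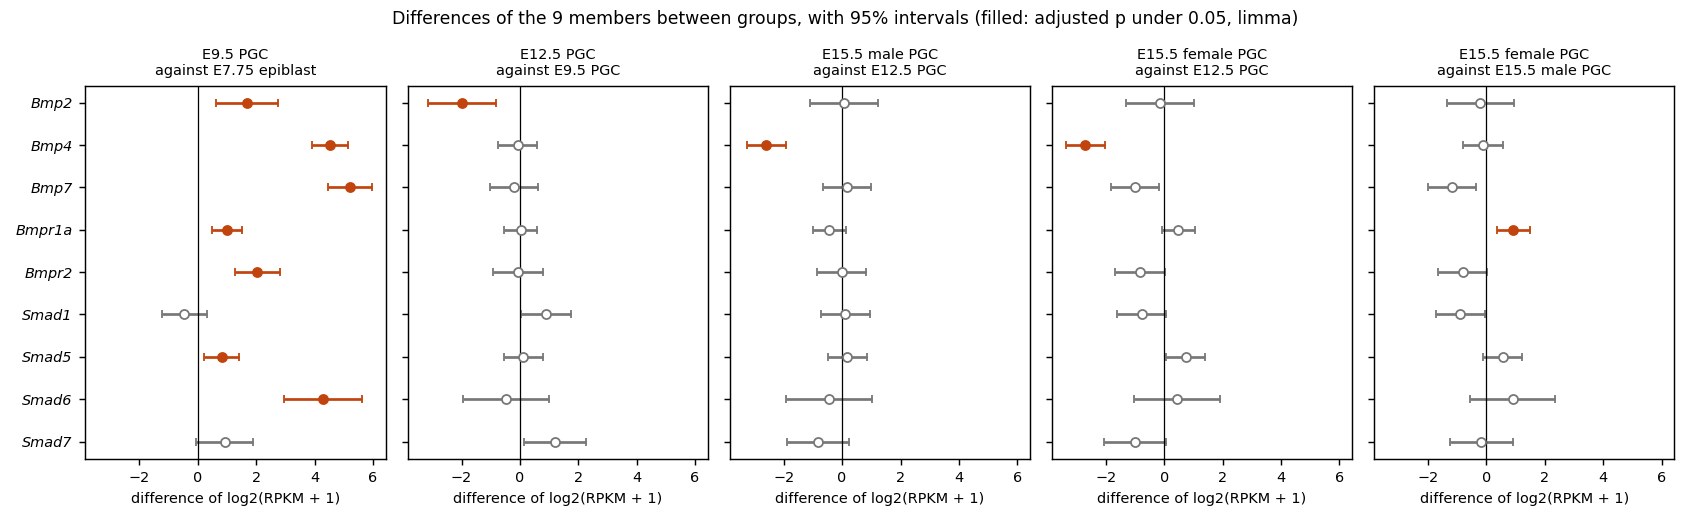
Difference of each of the 9 genes in 5 comparisons on the log2(RPKM + 1) scale (x axis, log2 units), with 95% intervals as bars; filled points are called at an adjusted p under 0.05 and open points are not. In E9.5 PGCs against the E7.75 epiblast, Bmp4, Bmp7 and Smad6 stand beyond 4 log2 units, while in E15.5 females against males the single filled point is Bmpr1a.

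Over all PGC groups against both epiblast days, 7 of the 9 genes were higher and none lower, while 58.5% of all genes tested were called, 32.1% higher and 26.4% lower. Those 4772 higher and 3922 lower calls became 4367 and 4271 after quantile normalization and 4148 and 4503 after upper-quartile scaling. The median difference of the 9 genes was 1.13 and that of all genes tested 0.09. Bmp7 was higher by 4.36 ± 0.19 (limma adjusted p = 2.479e-10), Smad6 by 3.92 ± 0.34 (2.653e-07), Bmp4 by 3.36 ± 0.16 (4.802e-10) and Bmpr2 by 1.48 ± 0.20 (1.694e-05). Bmpr1a was higher by 0.59 ± 0.13 (0.001575), and this was lost when the fit pooled the libraries into PGC and epiblast alone (0.06852). Bmp2, at -0.25 ± 0.27 (0.441), and Smad1 were not called. For Bmp4, Bmp7, Smad5 and Smad6 the 12 PGC and 6 epiblast libraries did not overlap, and the share of all genes tested for which this holds was not counted. These differences share libraries with the E9.5 comparison.

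The remaining steps gave no call by limma among the 9 genes. Between the epiblast days 0.269% of all genes tested were called (0.101% higher, 0.168% lower), and of the 9 genes Bmp4 and Bmp7 had an unadjusted p under 0.05. Between E10.5 and E11.5 the shares were 7.19%, 3.59% and 3.61% (533 higher and 536 lower calls, against 478 and 726 after upper-quartile scaling), and 0 of the 9 genes reached an unadjusted p under 0.05. Between E11.5 and E12.5 they were 7.21%, 4.12% and 3.09% (612 and 460, against 403 and 598), and 1 did, Bmpr1a (0.82 ± 0.26; adjusted p = 0.08018).

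Other pathway genes were taken from 5 lists of 77 symbols, of which 74 were in the table and 53 were tested. Of 11 other BMP ligands, only Gdf2 passed the filter on low values, at 1.08 and 1.02 RPKM in E9.5 PGCs and listed at 0 elsewhere. Among these and the 3 member ligands, only Bmp4 and Bmp7 reached a group mean of 10 RPKM.

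Of 8 tested receptors and co-receptors besides the members, 4 rose and 2 fell from E7.75 to E9.5, and 2 rose and 3 fell from E9.5 to E10.5. The shares over all genes tested were 16.3% and 11.3% for the first step and 11.5% and 18.4% for the second. One of the falls to E9.5 was Bmpr1b, which passed the filter only through the E7.25 and E7.75 epiblast females, at 1.07 and 2.23 RPKM. It would not have passed without the E7.75 libraries. Acvr2b, a type II receptor that also serves activins, had the highest level, 109.9 ± 16.0 RPKM at E10.5, and at E15.5 it was lower in females (31.8 RPKM) than in males (60.3 RPKM) by 0.90 ± 0.16 (limma adjusted p = 0.00253). Bmpr1b, a type I receptor, was listed at 0 in all 12 PGC libraries and stood at 0 to 2.23 RPKM in epiblast. Acvrl1 had the largest rise of this list from E7.75 to E9.5, 1.90 ± 0.38 (limma adjusted p = 0.001941), to 5.13 and 1.85 RPKM. Eng had its largest fall from E9.5 to E10.5, 2.09 ± 0.49 (limma adjusted p = 0.005651). Rgmb, a BMP co-receptor, rose by 1.12 ± 0.24 in that second step (limma adjusted p = 0.002881).

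Of 10 tested secreted antagonists and modulators, 1 rose and 1 fell from E7.75 to E9.5, near the 16.3% and 11.3% of all genes tested. Fstl1, a secreted follistatin-like glycoprotein, rose by 0.73 ± 0.18 to 98.4 ± 7.68 RPKM (limma adjusted p = 0.008317; 0.06314 without E9.5 replicate 2), and Nbl1, a BMP antagonist also called Dan, fell by 1.89 ± 0.41 (adjusted p = 0.003457). Fstl1 then fell from E12.5 to E15.5, 4.80-fold in males (adjusted p = 1.606e-05) and 3.21-fold in females (adjusted p = 8.247e-05). Fst, which encodes follistatin, fell by 3.63 ± 0.93 from E9.5 to E10.5 (adjusted p = 0.00933), a call lost without E9.5 replicate 2 (0.05556) or E10.5 replicate 2 (0.08346).

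Of 19 tested Smads and intracellular regulators besides the members, 2 rose and 3 fell from E7.75 to E9.5, near the 16.3% and 11.3% of all genes tested. Bambi, a decoy receptor without a kinase that the pathway induces, was at 28.4, 21.3 and 26.3 RPKM in the E7.75 epiblast and at 530.0 and 445.8 in E9.5 PGCs, a rise of 4.22 ± 0.19 (limma adjusted p = 5.018e-09). Ski, a co-repressor of Smads, fell by 2.77 ± 0.48 in the same comparison (adjusted p = 0.0006649). At E15.5 Bambi was at 138.5 and 118.7 RPKM in females and 36.9 and 41.4 in males, higher in females by 1.69 ± 0.21 (adjusted p = 0.0002025).

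The 15 listed BMP target genes were each called higher in E9.5 PGCs than in the E7.75 epiblast. But Atoh8, Tbx2 and Nkx2-3 passed the filter on low values only through the E9.5 libraries, where they are high. These genes are left out of the counts below that involve E9.5. The other 12, which pass it without the libraries of either group, rose with a median of 3.61, against 0.04 and 16.3% called higher for all genes tested. From E9.5 to E10.5, 6 of those 12 fell and 1 rose, against 18.4% and 11.5%. Msx2, a homeobox gene, rose by 7.12 ± 0.30 (limma adjusted p = 2.325e-09), to 248.3 and 209.3 RPKM. From E9.5 to E12.5, 9 of the 12 fell and none rose, against 11.9% and 11.3%. Of the members, only Bmp2 was called in this comparison, lower and resting on single libraries, and Bmp4 differed by -0.08. Whether the members' levels bear on the targets was not tested. The sums of the mesoderm, mesenchyme and endothelium markers given above were also highest at E9.5. None of these markers is on the target list, but they are not all separate from BMP targets. Hand1, also described as a BMP mesoderm target, made 261 and 245 of the 377 and 379 RPKM of the mesoderm sum.

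At E15.5, 9 of the 15 targets were higher in females than in males and none was lower, against 4.33% and 5.35% of all genes tested. All 15 pass the filter without the libraries of either group compared at this step. Their median difference was 1.31, against 0.00 for all genes tested. From E12.5 to E15.5, 7 of the 15 rose and none fell in females, against 8.6% and 9.84% of all genes tested. In males 2 of the 15 fell and none rose, against 5.15% and 3.58%. The male count was 0 without E12.5 replicate 1, E12.5 replicate 2 or male replicate 2, and 1 without male replicate 1. Id3, an inhibitor of helix-loop-helix factors, had the highest level of the list, 1206 ± 176 RPKM in E15.5 females. Gata2, a zinc finger factor, was at 45.0 and 33.4 RPKM in females and listed at 0 in both male libraries. Id1, Id2 and Msx1 are given here after their values were seen.

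Id1 was at 956.9 and 1190 RPKM in E15.5 females and 29.4 and 31.0 in males, a difference of 5.10 ± 0.28 (limma adjusted p = 1.43e-07). Id2 differed by 4.37 ± 0.28 (adjusted p = 5.984e-07) and Msx1 by 2.43 ± 0.46 (adjusted p = 0.004241). These sex differences, like that of every gene, missed the threshold when the 4 E15.5 libraries were fitted alone, at an adjusted p of 0.07175 for Id1. Among the members, Bmp2, Bmp4 and Smad7 RPKM overlapped between the sexes. Bmp7, Bmpr2 and Smad1 RPKM were lower in both female libraries, and Bmpr1a, Smad5 and Smad6 RPKM were higher in both. Of these only Bmpr1a was called, and no link to the targets was tested. In these libraries the 9 gonadal somatic markers summed to 18.1 to 33.8 RPKM in females and 27.4 to 31.2 in males. Lhx9 made most of these sums, at 15.1 to 29.5 RPKM in females and 19.5 to 23.8 in males, and Foxl2 was listed at 0. The extraembryonic mesoderm markers summed to 27.0 to 29.1 RPKM in females and 8.88 to 15.9 in males. Hand1 made 17.5 to 20.8 RPKM of that in females and 1.87 to 2.39 in males. The part of these markers in the sex difference was not tested.

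**Figure D4:**
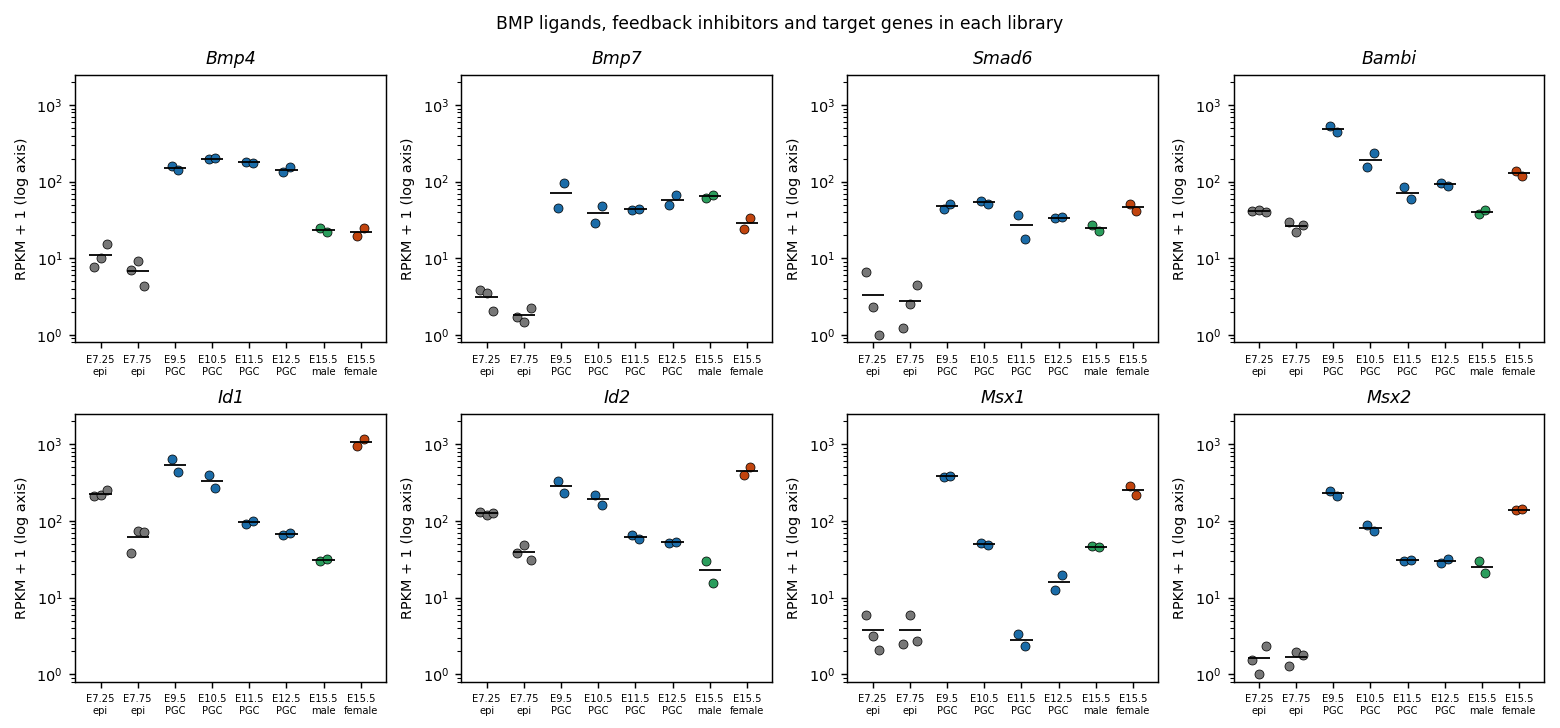
RPKM + 1 on a log axis for Bmp4, Bmp7, Smad6, Bambi, Id1, Id2, Msx1 and Msx2 in each library, by group in order of embryonic day; points are libraries and bars are group means. Id1, Id2, Msx1, Msx2 and Bambi stand higher in both E15.5 female libraries than in both male ones, whereas the Bmp4 points of the sexes overlap.

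By the Pearson correlation over all 18 libraries on the log2(RPKM + 1) scale, among 9569 tested genes whose mean reached 5 RPKM in some group, each of the 9 genes was matched with the 3 genes most like it. The libraries share strain and kit but fall into epiblast and PGC blocks and differ in depth, so these are descriptions. Bmp7 was most like Prdm1 (r = 0.9753), Parp9 (0.9746) and Tfap2c (0.967), of which Prdm1 and Tfap2c are PGC specification factors. Smad6 was most like Reep4 (0.951), Gng12 (0.9465) and Nanos3 (0.944), the last a germ cell RNA-binding protein. Bmp4, which falls at E15.5, was most like Rbm24 (0.9711), Isl2 (0.9709) and Cd82 (0.9498). Isl2, a LIM-homeobox gene, was listed at 0 in both epiblast groups, at a mean of 34.3 to 57.7 RPKM from E9.5 to E12.5, and at 3.59 and 5.17 in E15.5 males and females.

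The receptors and the remaining Smads had other neighbours. Bmpr1a was most like Zzz3 (r = 0.9362), Cul4b and Wdhd1, and Bmpr2 was most like Gnb1 (0.9475), Slfn13 and Tsc22d1. Smad5 was most like Map4 (0.9663), Zyg11a and Ptpra, and Smad7 was most like Apoe (0.9005), Entpd6 and Cdc7. The closest genes to Smad1 (Csrnp2, 0.8287, Ube2o and Zfp41) and Bmp2 (Dusp2, 0.8378, Stat6 and Cebpd) were less alike than those of the other 7.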

How the data were processed

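RNA was taken with a PicoPure kit and turned into cDNA with SMART-Seq v4, per the labels' protocols, in 18 libraries. Tools listed, without their order, in the submitters' processing notes are TopHat2 2.1.0, Cufflinks 2.2.1, cutadapt 1.14 and bcl2fastq 2.18.0.12, with the build rn6. The authors deposited 1 table of RPKM values per gene and library. Read counts, the annotation release, strand use and how shared reads were handled are not given there, so genes that overlap others may share reads, and the absolute depth is unknown.

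RPKM values were analysed as log2(RPKM + 1), a scale that shrinks changes of low genes, for the 14865 lines with at least 1 RPKM in at least 2 libraries. Limma 3.58.1 (R 4.3.3) with a mean-variance trend was fitted to 8 groups (10 residual degrees of freedom), with epiblast sexes together and E15.5 sexes apart, for 10 comparisons, and p-values were adjusted within each by Benjamini-Hochberg with a threshold of 0.05. All PGC against all epiblast compares unweighted means of the group means. A call is an adjusted p under 0.05. The fit was tested on simulated data. Plots used Python 3.11.15 and matplotlib 3.10.9.

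Members, lists, comparisons and alternatives were chosen with earlier results of these data known. Members are given in every library. Pathway genes were named from the largest called rise and fall of each list in a comparison and from the highest group means. Not every such gene is named. Other pathway genes named, such as Smad4, Smad9, Id1, Id2 and Msx1, were chosen after their values were seen. Relative depth was read from the low RPKM values (under 50 RPKM), and it is an estimate. Promoters are from RefSeq (GRCr8). Alternatives were another pseudocount (0.1), another filter (5 RPKM), quantile normalization, upper-quartile scaling, a fit of the compared groups alone, a replicate block and leaving out each library, and, chosen after seeing the data, leaving out the 4 E10.5 and E11.5 libraries or the E9.5 libraries.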

Additional observations from a re-analysis of the deposited data

Results flagged for a closer look

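Bmpr1a was the only one of the 9 BMP pathway genes whose level differed between the sexes of E15.5 PGCs by a test of the difference itself. The female minus male difference was 0.92 on the log2(RPKM + 1) scale (limma adjusted p = 0.04146), with 29.8 and 17.9 RPKM in females and 12.7 and 10.8 in males, higher in 2 of 2 female libraries. The call was lost in 13 of 26 alternatives.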

How the results depend on the processing

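Of 90 differences (9 genes in 10 comparisons), 21 were called. None of the 21 changed sign under any alternative, 13 were called under every alternative and 8 lost the call under at least 1. Of the 69 not called, 29 changed sign under some alternative and 5 became called under at least 1, and the cause was not tested. Of 55 differences of other pathway genes named or tracked, 36 lost the call under at least 1 alternative and none reversed.

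From E9.5 to E10.5, 3 of the 9 genes were called, 1 with a pseudocount of 0.1, 0 after quantile normalization and 0 in a limma fit of the compared groups alone (2 with an unadjusted p under 0.05 in each of the last 2), and 1 to 3 with single libraries left out. From E9.5 to E12.5 the 1 call became 0 with the pseudocount of 0.1, 0 with the filter at 5 RPKM, where Bmp2 was not tested, and 0 with the groups alone (2 with an unadjusted p under 0.05 in each), and 0 to 2 with single libraries left out. Between the E15.5 sexes the 1 call became 0 with the pseudocount of 0.1, 0 with the groups alone and 0 with the replicate block (3 with an unadjusted p under 0.05 in each), and 0 to 2 with single libraries left out.

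A fit of the compared groups alone has fewer residual degrees of freedom, and it changed the calls over all genes from 40 to 9 between the epiblast days, 4108 to 2204 for E9.5 against E7.75, 4443 to 0 for E10.5 against E9.5 (3544 with an unadjusted p under 0.05), 1069 to 56 for E11.5 against E10.5 and 1072 to 0 for E12.5 against E11.5 (3707). It changed them from 3449 to 1093 for E12.5 against E9.5, 1297 to 333 and 2741 to 1006 for E15.5 males and females against E12.5, and 1439 to 0 between the sexes (3183). Without the 4 E10.5 and E11.5 libraries, 12 genes were called between the epiblast days. Leaving out single libraries gave 16 to 50 calls between the epiblast days, 347 to 1357 for E11.5 against E10.5, 219 to 1313 for E12.5 against E11.5, 2077 to 3723 for E12.5 against E9.5, 495 to 1500 and 1448 to 3035 for E15.5 males and females against E12.5, and 635 to 1658 between the sexes.

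Replicate numbers showed no common shift across groups. Over 28 pairs of groups (the 6 PGC groups and the males of both epiblast days) the correlation of deviations was -0.133 to 0.0581, 9 were above 0 and 0 above 0.1. With 1 replicate difference per group, a small shift or one that differs between groups would not show in this check. With the replicate block, calls over all genes stayed within 1.5 times the main count in all 10 comparisons, and the members' calls lost were Smad5 at E9.5 and Bmpr1a between the sexes.

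Precision is limited by 2 libraries in each PGC group and 3 for each epiblast day, by the low depth at E10.5 and E11.5 and by values near 1 RPKM, which concern Bmp2 throughout and Bmp7, Bmpr2, Smad6 and Smad7 in epiblast.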

Other observations

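Beyond the 9 genes, the type II receptor Acvr2b had a higher RPKM than Bmpr2 in all 18 libraries, at 31.3 to 121.2 RPKM against 0.962 to 9.88. Smad4, the partner Smad shared with other pathways, was at 20.0 to 58.4 RPKM, and its PGC minus epiblast difference of 0.11 ± 0.12 was not called (limma adjusted p = 0.4542). Tob1, an antiproliferative protein that can bind Smads, was at 0.0352 to 1.44 RPKM in epiblast and 1.37 to 22.9 in PGCs, and its PGC minus epiblast difference was 2.89 ± 0.21 (limma adjusted p = 4.543e-08). Id1 fell by 1.94 ± 0.23 between E7.25 and E7.75 epiblast (limma adjusted p = 0.002922), and it is 1 of 2 listed targets called between those days, the other being Id2.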
